A study of Mus musculus with 15 samples.

Results

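The RNAs described here are the mouse small nucleolar RNAs, Y RNAs, spliceosomal RNAs and RNA components of RNase P and RNase MRP. Members were the matrix entries whose mouse symbol begins with Snord, Snora, Scarna, Rny or Rnu followed by a number, plus Rn7sk, Rmrp and Rpph1, with the genes that host them left out. The rule found 123 members among 65964 entries, carrying 121 distinct symbols, because Rmrp and Snora43 each have a pair of entries. They comprise 70 Snord, 37 Snora, 6 Scarna, 2 Rny and 5 Rnu entries and 3 entries for Rmrp and Rpph1. A further 55 annotated entries that meet the rule, among them Rn7sk, 17 copies of Snord116 and 9 copies of the U3 RNA, had no matching identifier and were not analysed here.

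The series measured RNA from brain labelled C57BL/6, and all 15 libraries, the untreated ones included, also carry the label of the temporal lobe epilepsy model made with kainic acid (KA). The 5 groups of 3 libraries are CTRL_L (untreated), KA_L and KA_H (treated with KA), and APOE_L and APOE_H (treated with KA and APOE). The labels define neither L nor H, do not say whether APOE is a protein, a vector or a genotype, and give no age, time or dose. The Apoe transcript was lower in every APOE library (at most 144 TPM) than in every KA library (at least 1969.6 TPM). The reason was not tested. Separate animals are not stated for libraries of the same group, so the p-values below measure the spread between libraries, which may be technical.

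Small nucleolar RNAs (snoRNAs) guide enzymes to ribosomal RNA. Those with the C and D boxes (Snord) direct ribose methylation, those with the H and ACA boxes (Snora) direct pseudouridylation, and the small Cajal body RNAs (Scarna) do the same for spliceosomal RNAs. Most mammalian snoRNAs are cut out of the introns of host genes, whereas a few, including U3 (Rnu3a), U8 (Snord118) and U13 (Snord13), are transcribed from their own promoters and act in the cleavage or modification of the ribosomal RNA precursor. U11 and U12 are the RNAs by which the minor spliceosome recognises a rare class of introns. Y RNAs bind the Ro60 protein and are made by RNA polymerase III, as are the RNAs of RNase P (Rpph1) and RNase MRP (Rmrp), which mature transfer RNA and ribosomal RNA precursors.

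The sequences of 8 members on which the results turn were taken from the GENCODE M21 transcripts of GRCm38, 5′ to 3′. The Y RNAs are shown together because they had the lowest ratios of mean TPM in H to that in L among the called members, 0.0440 for Rny3 and 0.0482 for Rny1. Capitals mark the 5 stretches of at least 7 bases, 42 bases in all, that Rny1 (112 nt) and Rny3 (102 nt) share, and both genes lie on the same chromosome with 1 annotated gene between them.
Rny1: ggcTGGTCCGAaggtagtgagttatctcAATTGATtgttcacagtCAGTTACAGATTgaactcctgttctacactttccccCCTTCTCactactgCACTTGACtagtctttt
Rny3: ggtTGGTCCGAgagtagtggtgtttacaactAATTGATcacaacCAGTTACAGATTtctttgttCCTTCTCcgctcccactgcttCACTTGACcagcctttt

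A pair of independently transcribed snoRNAs is shown next, since they were among the most abundant members. Capitals mark a C box, searched as NTGATGA, and a D box, searched as CTGA within the last 25 bases, both on the sense strand. This pair was present in 49 of 70 Snord sequences (70.0%), 0 of 37 Snora, 5 of 6 Scarna and 2 of 5 Rnu sequences.
Snord118: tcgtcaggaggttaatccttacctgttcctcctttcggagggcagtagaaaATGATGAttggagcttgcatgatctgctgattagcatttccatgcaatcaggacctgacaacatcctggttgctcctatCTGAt
Rnu3a: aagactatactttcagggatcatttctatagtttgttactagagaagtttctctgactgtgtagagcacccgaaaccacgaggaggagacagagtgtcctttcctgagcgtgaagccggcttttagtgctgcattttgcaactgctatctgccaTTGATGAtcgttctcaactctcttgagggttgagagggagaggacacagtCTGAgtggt

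The minor spliceosomal RNAs are shown for their uridine-rich stretch, TTTTTG in capitals, which in U11 and U12 lies at the binding site of the Sm protein ring. The same letters occurred in 2 of 5 Rnu (40%), 3 of 70 Snord (4.29%) and 3 of 37 Snora sequences (8.11%), so the match is not specific to these RNAs.
Rnu11: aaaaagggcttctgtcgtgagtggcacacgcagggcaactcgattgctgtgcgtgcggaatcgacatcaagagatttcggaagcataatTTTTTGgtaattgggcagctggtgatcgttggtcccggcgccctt
Rnu12: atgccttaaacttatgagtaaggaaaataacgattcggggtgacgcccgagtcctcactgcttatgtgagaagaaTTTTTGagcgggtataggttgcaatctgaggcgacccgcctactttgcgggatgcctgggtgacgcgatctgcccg

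Snora30 and Snora31 were the most abundant H/ACA members and differed in pattern, as described below. Capitals mark the ACA box 3 bases before the end, which 30 of 37 Snora sequences (81.1%) and 0 of 70 Snord sequences held.
Snora30: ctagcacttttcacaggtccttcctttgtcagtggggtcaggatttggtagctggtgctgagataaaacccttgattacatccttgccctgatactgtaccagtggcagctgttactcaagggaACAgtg
Snora31: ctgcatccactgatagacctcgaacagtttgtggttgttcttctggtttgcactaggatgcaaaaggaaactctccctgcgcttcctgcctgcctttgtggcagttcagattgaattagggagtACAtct

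Detection differed by annotated length. The values are TPM, a transcript abundance normalised for length and scaled to sum to 1000000 in each library, and a member was counted as detected where it was above 0. Of the 123 members, 35 were above 0 in at least 1 library, 88 were listed at 0 in all 15, and only Rny3 and Rnu3a were above 0 in all 15. None of the 62 members under 100 nt was detected in any library, and 58 of these were Snord entries. The share detected was 40% between 100 and 125 nt (4 of 10), 54.1% between 126 and 150 nt (20 of 37) and 78.6% from 151 nt (11 of 14), and the shortest detected member was Rny3 at 102 nt. Among 1819 entries of the same biotypes outside the rule the shares were 1.12%, 6.01%, 9.32% and 13.7% in the same length classes. Libraries were built from total RNA with a TruSeq kit, whose fragment size selection is known to lose short RNAs, so a value of 0 for a short member does not show that the RNA was absent. Because the matrix holds no counts, the depth behind each TPM is unknown and no limit can be given for a value of 0.

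**Figure D1:**
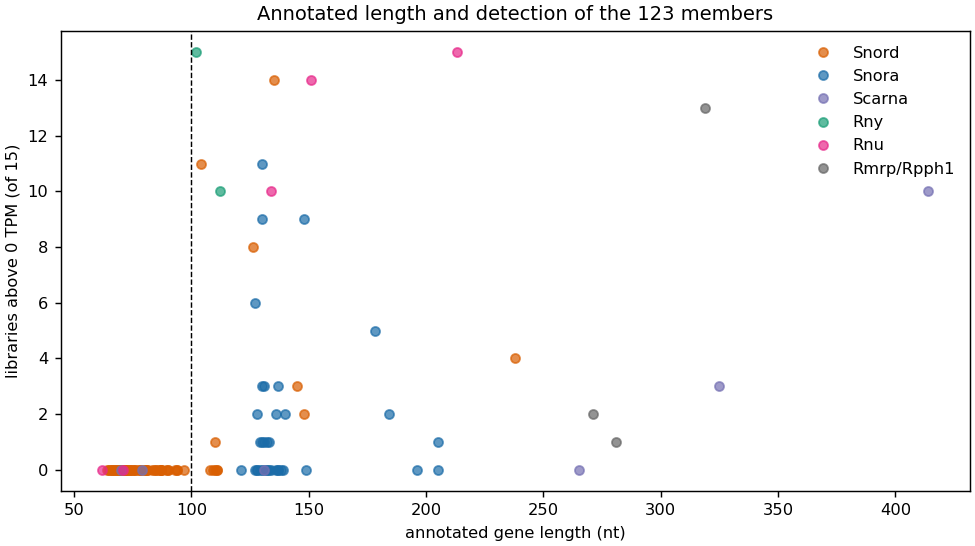
Each point is 1 of the 123 members, with the annotated gene length in nt on the horizontal axis and the number of libraries above 0 TPM, of 15, on the vertical axis; colours give the RNA class and the dashed line marks 100 nt. All 62 members under 100 nt lie at 0, and 35 of the longer ones lie above 0.

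By class, 7 of 70 Snord, 18 of 37 Snora, 2 of 6 Scarna, both Rny, 3 of 5 Rnu and all 3 Rmrp and Rpph1 entries were detected at least once. Detection also followed the genomic setting. Of the 17 members with no host gene on the same strand, 12 were detected and 9 were above 0 in 10 or more libraries. Of the 53 members in an intron of a host, 9 were detected and 1, Snora30, reached 10 libraries. Of the 53 that overlap a host exon, 14 were detected and 0 reached 10 libraries. Among the 61 members of 100 nt or more, 12 of 15 without a host and 23 of 46 within a host were detected.

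The number of members above 0 in a library was 15 to 17 in KA_L, 10 to 17 in KA_H, 14 to 16 in APOE_L, 8 to 11 in APOE_H and 11 to 14 in CTRL_L. The APOE_H libraries were thus below every KA_L and APOE_L library. Over all entries, the number above 0 was 18977 to 19899 in KA_L, 18006 to 18853 in KA_H, 18620 to 19321 in APOE_L, 16715 to 19007 in APOE_H and 15710 to 17313 in CTRL_L. Over all entries the KA_H libraries were thus below the KA_L libraries, and APOE_H overlapped with APOE_L. For members, KA_H overlapped with KA_L, as KA_H replicate 2 equalled the highest KA_L library at 17. At 1 TPM or more, members numbered 15 to 16 in KA_L, 8 to 17 in KA_H, 14 to 15 in APOE_L and 6 to 10 in APOE_H, while all entries numbered 12801 to 15452 in the 6 H libraries and 9931 to 12085 in the 9 L libraries.

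The members' share of all TPM was 0.134 ± 0.060% in CTRL_L, 0.600 ± 0.081% in KA_L, 0.460 ± 0.108% in APOE_L, 0.147 ± 0.094% in KA_H and 0.0333 ± 0.0039% in APOE_H (mean ± SD, n = 3 each). Summed TPM per library was 1200.2, 1999 and 826 in CTRL_L, 6410.2, 6512 and 5064 in KA_L, 2061, 1967 and 382 in KA_H, 5068, 3362 and 5372 in APOE_L, and 344, 365 and 289.7 in APOE_H. Every KA_L and APOE_L library lay above every CTRL_L, KA_H and APOE_H library, and the APOE_H libraries were the 3 lowest. As a sum over members chosen with earlier results known, these shares are given as a description without a test. Snord13, Rnu3a, Rny3, Snord118 and Rny1 together held 82.6% of the members' TPM in CTRL_L, 89.6% in KA_L, 89.6% in APOE_L, 87.1% in KA_H and 67.0% in APOE_H.

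Among classes, Snord entries had the largest share in every group except APOE_H, where the Rnu class was larger. The Snord share was 0.0461 ± 0.0294% in CTRL_L, 0.343 ± 0.044% in KA_L, 0.235 ± 0.071% in APOE_L, 0.0976 ± 0.0783% in KA_H and 0.00867 ± 0.00469% in APOE_H. Without Snord13 the Snord share in KA_L was 0.0838%, so that 1 gene carried most of it. The Rnu share was 0.0378 ± 0.0285%, 0.118 ± 0.045%, 0.113 ± 0.008%, 0.0296 ± 0.0110% and 0.0149 ± 0.0031% in the same order of groups, with 0.0228% in CTRL_L when its replicate 2 was left out. Here too 1 gene carried most of it, the U3 snoRNA Rnu3a. Its mean was 1060 of 1180 TPM of the Rnu class in KA_L and 142 of 148 TPM in APOE_H. The Rnu shares are thus mostly not those of spliceosomal RNAs. The Rny share was 0.0326 ± 0.0183%, 0.0977 ± 0.0314%, 0.0914 ± 0.0583%, 0.00796 ± 0.00887% and 0.00060 ± 0.00090%. Single libraries carried some of these means: without KA_H replicate 2 the KA_H share was 0.00317%, without APOE_H replicate 3 the APOE_H share was 9e-05%, and without APOE_L replicate 3 the APOE_L share was 0.0603%. The Y RNAs had the widest relative range of the 3 larger classes, with summed values of 0.02 to 16.3 TPM in APOE_H. Snora entries moved over a narrower range, 0.0147 ± 0.0053%, 0.0324 ± 0.0133%, 0.0177 ± 0.0058%, 0.0114 ± 0.0086% and 0.00884 ± 0.00516%, and their library values overlapped between APOE_L, KA_H and CTRL_L. Without KA_H replicate 2 the Snora share of KA_H was 0.00689%. Rmrp and Rpph1 together held 0.00297 ± 0.00146%, 0.00799 ± 0.00520%, 0.00279 ± 0.00147%, 0.00034 ± 0.00003% and 0.00020 ± 0.00036%, with 0.0051% in KA_L without its replicate 2 and 0 in APOE_H without its replicate 1. The Scarna share was at most 0.00055% in any library.

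**Figure D2:**
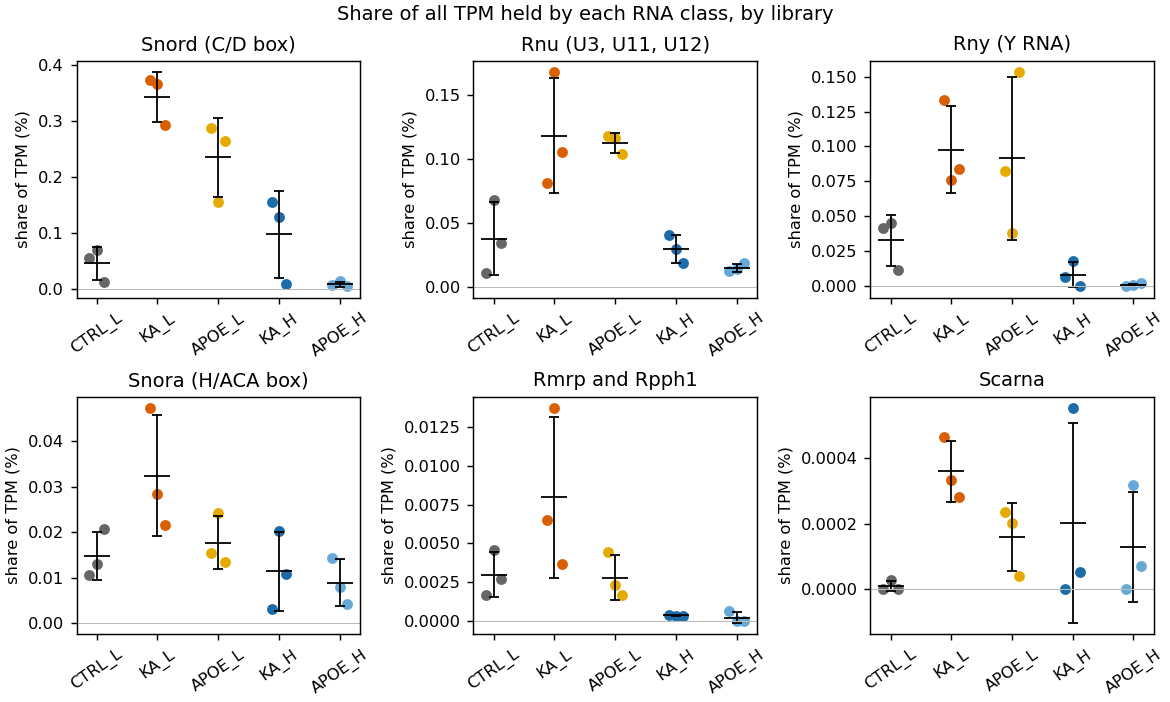
Share of all TPM (%) by RNA class on linear axes that differ between panels; each point is 1 library, the long bar is the group mean and the whiskers are the SD (n = 3). In the Snord, Rnu and Rny panels the 3 KA_L libraries lie above all 3 libraries of CTRL_L, KA_H and APOE_H.

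Members without a same-strand host held 0.118 ± 0.065% in CTRL_L, 0.558 ± 0.083% in KA_L, 0.439 ± 0.110% in APOE_L, 0.133 ± 0.092% in KA_H and 0.0234 ± 0.0029% in APOE_H. Members inside a host held 0.0157 ± 0.0070%, 0.0413 ± 0.0126%, 0.0215 ± 0.0025%, 0.0140 ± 0.0042% and 0.00994 ± 0.00528%.

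Several measures of the libraries moved with these shares, and their part in them was not tested. Loci assembled without an Ensembl identifier held 7.84 ± 1.11% of TPM in CTRL_L, 11.8 ± 0.36% in KA_L, 11.03 ± 0.41% in APOE_L, 5.46 ± 1.18% in KA_H and 2.83 ± 0.54% in APOE_H, the same order of the 4 treated groups as for the members. Entries of the same biotypes outside the rule held 0.120 ± 0.034%, 0.258 ± 0.046%, 0.225 ± 0.025%, 0.0571 ± 0.0292% and 0.0372 ± 0.0048%. The 6 choroid plexus markers moved the other way, with summed TPM of 57.6 to 1276 in KA_L and APOE_L and 32978 to 58372 in KA_H and APOE_H, and none of the 6 was below 1 TPM in all libraries. Within CTRL_L their sum was 139, 38678 and 23511, beside members' sums of 1200.2, 1999 and 826, so the control library with few choroid plexus transcripts lay between the other control libraries. The 5 neutrophil markers summed to at most 0.07 TPM in the L libraries and to 226 to 1291 TPM in KA_H, and were at 0 in APOE_H replicates 1 and 3 and at 1173 TPM in replicate 2. The 7 astrocyte markers summed to 95.4 to 163 TPM in KA_L and APOE_L, 34.5 to 86.3 TPM in KA_H and APOE_H and 82.2 to 256 TPM in CTRL_L, with Gfap at most 3.53 TPM and 1 of 7 at 1 TPM or more in all libraries. The 5 red blood cell markers summed to 80.95 to 156 TPM in KA_L, 384 to 4092 in KA_H, 0.10 to 7386 in APOE_L and 43.7 to 749 in APOE_H. The 6 oligodendrocyte markers summed to 14.98 to 70.8 TPM in KA_L, 17.1 to 25.6 in KA_H, 71.5 to 119.5 in APOE_L and 63.0 to 106 in APOE_H. Against the brain label, the 7 neuron markers summed to at most 66.5 TPM in any library, with 3 of 7 below 1 TPM in all 15. All 8 microglia markers were at 1 TPM or more in all 15. Their sums were 6796 to 26094 TPM in CTRL_L, 5864 to 9044 in KA_L, 8645 to 9596 in KA_H, 8253 to 10506 in APOE_L and 13559 to 20941 in APOE_H. The Apoe transcript was 8767 to 16636 TPM in KA_H and 1969.6 to 3262 TPM in KA_L, against 0 to 0.71 TPM in APOE_L and 6.49 to 144 TPM in APOE_H. In bulk tissue, fewer cells of a type and less RNA per cell cannot be told apart.

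For single members, differences were tested with limma on log2(TPM + 1), in 1 fit over all 15 libraries and 17505 entries that reached 1 TPM in 3 or more libraries. Of the 123 members, 21 passed this filter: 5 Snord, 8 Snora, 2 Scarna, both Rny, 3 Rnu and Rpph1. The filter can pass a member through the libraries in which it is high, so the counts below describe the tested members and not the whole set. A difference on this scale understates the change of low values, and no fold is given against a group listed at 0.

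KA_L was compared with CTRL_L to ask what KA treatment changed within the L libraries. None of the 21 members passed an adjusted p of 0.05 (limma, Benjamini-Hochberg over all tested entries), where 0.571% of all tested entries were called. This does not show that the members were unchanged. An unadjusted p under 0.05 was found for 4 of 21 members and for 1945 of 17505 tested entries (limma). With CTRL_L replicate 2 left out, 1 member was called, Snord118 (7.68, adjusted p = 0.00188, limma). The median difference of the members was 1.16 on the log2 scale, against 0 for all tested entries. Snord118, the U8 RNA needed for maturation of the large ribosomal subunit's RNAs, came nearest. Its TPM was 11.4, 253 and 0 in CTRL_L and 516, 884 and 822 in KA_L. The groups did not overlap, and the difference was 5.62 (SE 1.28, adjusted p = 0.0605, limma). Rnu3a, the U3 RNA that base-pairs with the ribosomal RNA precursor for its first cleavages, was 26.7, 646 and 326 in CTRL_L and 738, 1413 and 1029 in KA_L. Those groups did not overlap either, with a difference of 2.51 (SE 0.80, adjusted p = 0.225, limma). For Snord13, Rny3, Rpph1 and Snora30 the KA_L libraries were likewise all above the CTRL_L libraries, with differences of 3.12, 1.84, 1.92 and 3.60 and adjusted p of 0.557, 0.661, 0.529 and 0.448 (limma). Snora31 differed in sign from most members, at 40.5, 62.9 and 128 in CTRL_L and 28.6, 31.3 and 0 in KA_L, a difference of -2.83 (SE 1.69, adjusted p = 0.583, limma). With Snora31, 7 of 21 tested members did not overlap between KA_L and CTRL_L. The share of all tested entries without overlap was not computed, so these separations are only a description.

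H and L libraries were then compared within each treatment and averaged over both, where L stands for KA_L and APOE_L and the CTRL_L libraries are left out. The averaged comparison uses the same libraries as the other 2. In KA_H against KA_L, 1 of 21 members was called, Rny3, which was lower, where 1.49% of all tested entries were called in either direction and 0.251% as lower. In APOE_H against APOE_L, 6 of 21 members were called, all lower: Snord13, Rny3, Rnu11, Rnu12, Rny1 and Rpph1. Over all entries 6.15% were called in that comparison and 1.45% as lower. Averaged over both treatments, these 6 and Rnu3a and Snora30 were lower in H, 8 of 21 in all, and none was higher, where 10.2% of all tested entries were called and 2.46% as lower. The median difference of the members was -1.003 in KA, -1.84 in APOE and -1.19 averaged, against 0.11, 0.54 and 0.32 for all tested entries. Leaving out 1 library took the KA count to 0 in 5 of 6 cases, and the APOE count to 3 without APOE_L replicate 2. Without the filter on low values the averaged count was 5, as Rny1 (adjusted p = 0.055), Rnu3a (0.0768) and Snora30 (0.121) were lost, and Rny1 in APOE had an adjusted p of 0.152 (limma). Of the 8 called members, 7 have no same-strand host, and Snora30 lies in an intron of Srcap. Among the 21 tested members 10 have no such host, and so do 9 of the 10 members above 0 in 10 or more libraries. Host status and steady detection thus go together, and a link of the calls with host status was not tested.

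**Figure D3:**
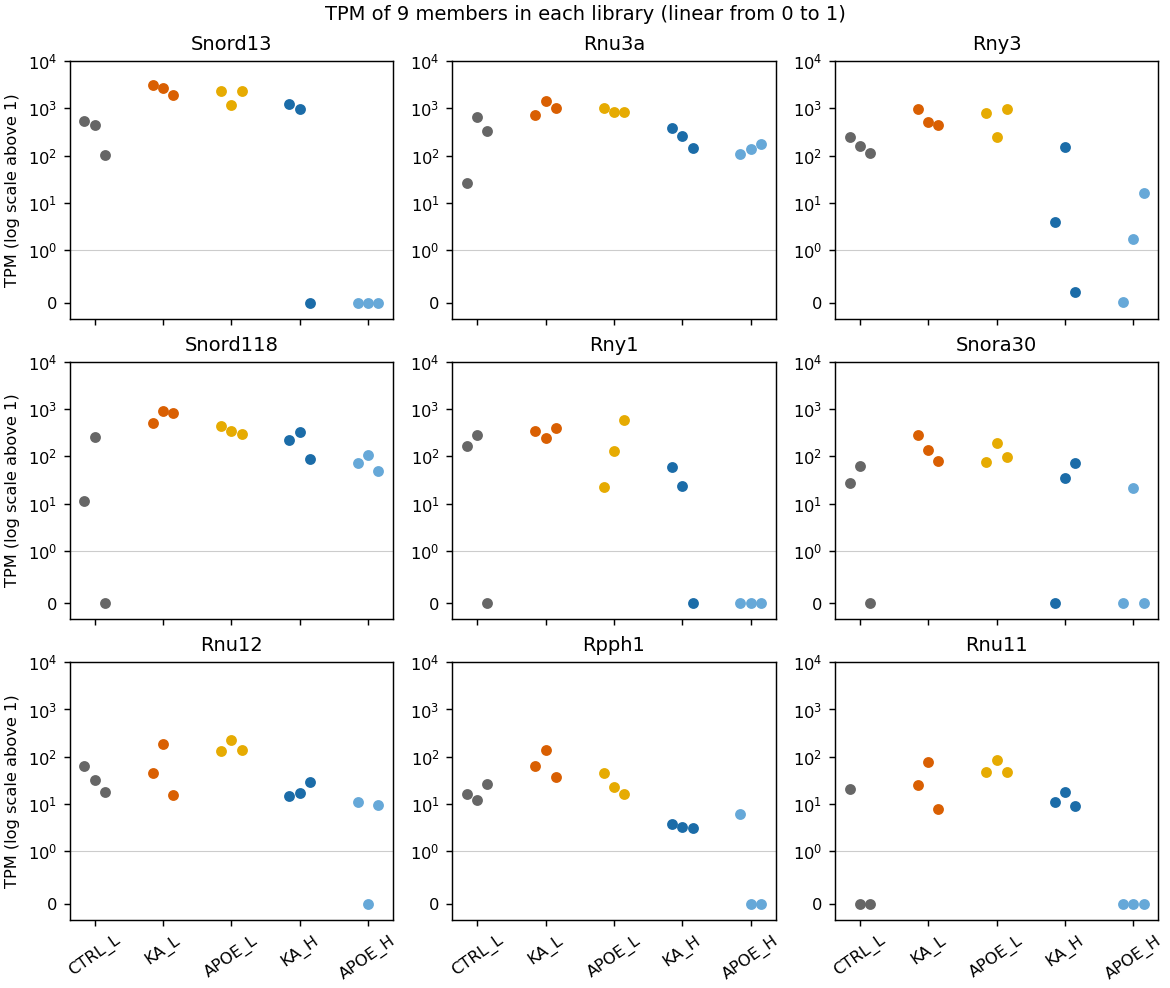
TPM of 9 members in each of the 15 libraries, on an axis that is linear from 0 to 1 and logarithmic above 1; each point is 1 library and colours give the group. Rny1, Snord13 and Rnu11 lie at 0 in all 3 APOE_H libraries, while Rnu3a and Snord118 remain above 0 there.

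Among the Y RNAs, Rny3 was 253, 164 and 115 in CTRL_L, 992, 511 and 437 in KA_L, 3.88, 152 and 0.20 in KA_H, 803, 250.4 and 961 in APOE_L, and 0.02, 1.70 and 16.3 in APOE_H. Every H library lay below every KA_L and APOE_L library, and KA_H replicate 2 lay above the lowest CTRL_L library. The difference was -5.97 in KA (SE 1.36, adjusted p = 0.0405), -7.32 in APOE (SE 1.36, adjusted p = 0.00629) and -6.65 averaged (SE 0.96, adjusted p = 0.000623, limma). The KA call rests on single libraries: without KA_H replicate 3 the difference was -4.47 with an adjusted p of 0.18 (limma), and leaving out KA_H replicate 1 or any 1 of the KA_L libraries also ended it, with adjusted p from 0.0642 to 0.132. Rny1 was 162, 283 and 0 in CTRL_L, 344, 247 and 399 in KA_L, 59.4, 23.4 and 0 in KA_H, 22.6, 129.8 and 575 in APOE_L, and 0 in each of the 3 APOE_H libraries. It was at 0 in all APOE_H libraries, and KA_H overlapped with APOE_L, whose lowest library was at 22.6. Its difference was -6.92 in APOE (SE 1.83, adjusted p = 0.0337) and -5.88 averaged (SE 1.29, adjusted p = 0.00894, limma). The APOE call was lost without APOE_L replicate 2 or 3 or without any 1 of the APOE_H libraries, with adjusted p from 0.0804 to 0.119 (limma). Rny1 and Rny3 are short and related to many scattered copies in mammalian genomes, so reads may be shared with those copies.

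The tested genes most like Rny3 over the 15 libraries were 4930481A15Rik (Pearson r = 0.943), Cpeb1, which regulates the translation of messenger RNAs with a cytoplasmic polyadenylation element (r = 0.903), and Gm37903 (r = 0.892), all on log2(TPM + 1). These points share the group differences and the libraries, so the values are a description. Cpeb1 was 195, 198 and 324 TPM in KA_L, 67.2, 113 and 41.7 in KA_H, 327, 294 and 203 in APOE_L, and 40.5, 35.6 and 33.3 in APOE_H.

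Among the snoRNAs with their own promoters, Snord13, the U13 RNA that guides acetylation of the small ribosomal subunit's RNA, was 537, 446 and 102 in CTRL_L, 3143, 2739.7 and 1898 in KA_L, 1234, 949 and 0 in KA_H, 2357, 1197 and 2297 in APOE_L, and 0 in each of the 3 APOE_H libraries. By group mean it was the most abundant member everywhere except in APOE_H. KA_H was split, with replicates 1 and 2 near the lowest APOE_L library and replicate 3 at 0. The difference was -10.87 in APOE (SE 1.76, adjusted p = 0.00334) and -7.73 averaged (SE 1.24, adjusted p = 0.00118, limma), both computed with libraries at 0. Rnu3a was 26.7, 646 and 326 in CTRL_L, 738, 1413 and 1029 in KA_L, 380.0, 261 and 148 in KA_H, 997, 852 and 850.5 in APOE_L, and 111, 141 and 173 in APOE_H. All 6 H libraries lay below all 6 libraries of KA_L and APOE_L, and the averaged difference was -2.37 (SE 0.57, adjusted p = 0.0141, limma). Within APOE alone the difference of -2.68 had an adjusted p of 0.0579 (limma). It passed with a 5 TPM filter (adjusted p = 0.0457), protein-coding scaling (adjusted p = 0.0445) or only the compared groups (adjusted p = 0.0132, limma). Near-identical U3 copies exist, 9 of them not analysed here, so the Rnu3a value may hold reads of other copies or lack some of its own. Snord118 was 430.2, 348 and 298 in APOE_L, 220.2, 326 and 85.9 in KA_H and 72.7, 105 and 48.3 in APOE_H. It was detected in all H libraries, and its averaged difference of -2.13 (SE 0.90) had an adjusted p of 0.145 (limma). With only the compared groups in the fit, Snord118 was called lower averaged (adjusted p = 0.00307) and in APOE (adjusted p = 0.0308, limma). No other alternative called it in these comparisons.

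Among the minor spliceosomal RNAs, Rnu12 was 63.2, 31.9 and 18.0 in CTRL_L, 44.6, 187 and 15.7 in KA_L, 14.7, 17.5 and 29.2 in KA_H, 132, 227 and 138 in APOE_L, and 10.97, 0 and 9.72 in APOE_H. The APOE_L libraries had the highest mean, and KA_L and KA_H overlapped. The difference was -5.00 in APOE (SE 1.08, adjusted p = 0.0129) and -3.17 averaged (SE 0.76, adjusted p = 0.0145, limma). Without APOE_L replicate 2 the APOE value missed the threshold, at an adjusted p of 0.0512 (limma). Rnu11 was 21.2, 0 and 0 in CTRL_L, 24.98, 79.3 and 7.82 in KA_L, 10.9, 18.1 and 9.08 in KA_H, 47.4, 85.8 and 47.95 in APOE_L, and 0 in each of the 3 APOE_H libraries. APOE_H was at 0 throughout, and KA_H lay between the lowest and the highest KA_L library. The difference was -5.88 in APOE (SE 1.25, adjusted p = 0.0119) and -3.44 averaged (SE 0.88, adjusted p = 0.0200, limma), and the averaged call was lost without KA_H replicate 3 (adjusted p = 0.051). The strand setting used by the authors is not given in the sources used here, so reads from genes on the opposite strand cannot be told apart from those of a member they overlap. The major spliceosomal RNAs U1, U2, U4, U5 and U6 are not among the analysed members, and Rnu7, which processes histone messenger RNA ends, and Rnu73b were listed at 0 in all libraries.

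Rpph1, the RNA of RNase P, was 16.7, 11.9 and 26.8 in CTRL_L, 65.2, 137 and 36.7 in KA_L, 3.75, 3.24 and 3.10 in KA_H, 44.5, 22.9 and 16.3 in APOE_L, and 6.15, 0 and 0 in APOE_H. All H libraries were below all KA_L and APOE_L libraries. The difference was -3.79 in APOE (SE 1.03, adjusted p = 0.0384) and -3.90 averaged (SE 0.73, adjusted p = 0.00339), and in KA it was -4.01 with an adjusted p of 0.0640 (limma). The APOE call was lost without any 1 of the APOE_L libraries and without APOE_H replicate 2 or 3, with adjusted p from 0.0627 to 0.148, with a pseudocount of 5 (adjusted p = 0.0731) and with only the compared groups (adjusted p = 0.0906, limma), whereas the averaged call was kept in 21 of 21 alternatives. Rmrp was above 0 only in CTRL_L replicate 2, at 28.3 TPM, and KA_L replicate 2, at 0.76 TPM, and its second entry only in CTRL_L replicate 2, at 5.30 TPM. The entries overlap each other, so the division between them is uncertain.

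Among the H/ACA snoRNAs, Snora30 was 27.0, 62.9 and 0 in CTRL_L, 286, 136 and 80.2 in KA_L, 0, 34.3 and 73.5 in KA_H, 76.5, 189 and 94.98 in APOE_L, and 0, 20.97 and 0 in APOE_H. The 6 L libraries with KA treatment lay above all 6 H libraries, by a narrow margin of 76.55 against 73.52 TPM. The averaged difference was -4.37 (SE 1.20, adjusted p = 0.0285, limma). This call was kept in 14 of 21 alternatives and was lost without KA_L replicate 1, KA_H replicate 1, APOE_L replicate 2 or APOE_H replicate 1 or 3, with adjusted p from 0.0625 to 0.0752 (limma). Its host Srcap, a chromatin remodelling ATPase, had a mean of 12.6 TPM in H and 68.9 in L and a difference of -1.93 (SE 1.10, adjusted p = 0.279, limma). Snora31, in an intron of the translationally controlled tumour protein gene Tpt1, was 40.5, 62.9 and 128 in CTRL_L, 28.6, 31.3 and 0 in KA_L, 14.6, 22.9 and 0 in KA_H, 0, 0 and 8.63 in APOE_L, and 21.6, 0 and 0 in APOE_H. It was highest in CTRL_L, and its averaged difference between H and L was -0.02 (SE 1.19, adjusted p = 0.995, limma). Tpt1 itself was 334 TPM in H and 561 in L.

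The remaining H/ACA members were detected in scattered libraries. Snora81, within Eif4a2, was above 0 in 5 libraries at 7.36 to 71.3 TPM, and Snora28, within Eif5, in 6 at 3.26 to 44.1 TPM. Snora57 was above 0 in 9 libraries at 0.48 to 27.7 TPM. None of these 3 was called in any of the 7 comparisons, and each had libraries at 0 in both L and H groups. Snora78 was above 0 in APOE_H replicates 1 and 3 only, at 42.8 and 33.6 TPM, and was chosen after its values were seen as the third most abundant member of that group.

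The host-bound C/D members were as sparse. Snord22, within Snhg1, was above 0 in 8 libraries at 2.12 to 33.6 TPM, the highest being APOE_H replicate 2. Snord17, within Snx5, was above 0 in 4 libraries at 22.1 to 65.0 TPM. Snord15a, within Rps3, was above 0 in KA_L replicate 3 at 199 TPM and APOE_L replicate 3 at 43.6 TPM. Snord8, within Chd8, was above 0 in KA_H replicate 1 alone, at 64.8 TPM. None of the tested ones was called. Where a member overlaps a host exon or lies in a retained intron, reads of the host transcript cannot be separated from those of the mature RNA.

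Of the Cajal body RNAs, Scarna2 was above 0 in 10 libraries at up to 4.64 TPM, and Scarna10 in KA_L replicates 2 and 3 and KA_H replicate 2 at 1.31 to 3.34 TPM. Neither was called, and Scarna6, Scarna8, Scarna9 and Scarna17 were at 0 throughout.

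**Figure D4:**
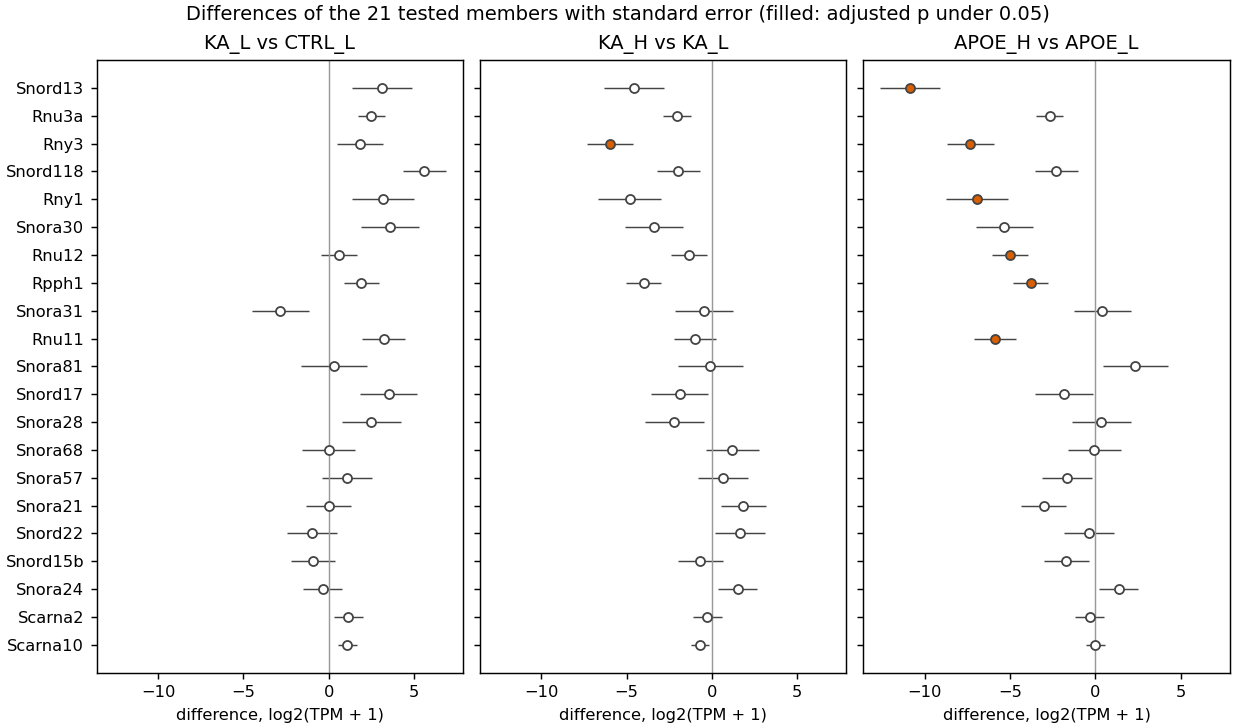
Differences on log2(TPM + 1) of the 21 tested members in 3 comparisons, ordered by mean TPM; points are the limma estimates, whiskers are 1 standard error and filled points have an adjusted p under 0.05. No point is filled for KA_L against CTRL_L, 1 (Rny3) for KA_H against KA_L and 6 for APOE_H against APOE_L.

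KA with APOE was compared with KA alone within L and within H. In APOE_L against KA_L, 0 of 21 members were called, where 0.0457% of all tested entries were called (limma). An unadjusted p under 0.05 was found for 1 of 21 members and for 1373 of 17505 tested entries (limma). In APOE_H against KA_H, 0 of 21 were called, where 0.531% of all entries were called (limma). The unadjusted p was under 0.05 for 2 of 21 members and for 1510 of 17505 tested entries (limma). The lowest adjusted p there was 0.153, for Snord13, which was at 0 in APOE_H and split in KA_H. Without KA_H replicate 3, the library at 0, Snord13 was called (-10.08, adjusted p = 2.81e-06, limma). The difference between the APOE and KA contrasts of H against L was tested as an interaction. None of 21 members passed, the lowest adjusted p was 0.499, and 0.0457% of all entries were called (limma). The unadjusted p was under 0.05 for 4 of 21 members and for 1456 of 17505 tested entries (limma). Without KA_H replicate 3, Snord13 passed (-9.64, adjusted p = 0.000308, limma). With all libraries, the 6 calls in APOE and the 1 call in KA are not shown to differ between the treatments.

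The proteins that these RNAs work with were read from 10 lists. As for the members, a gene could enter the test through the libraries in which it was high, so the counts are a description. Over all tested entries 7.72% were called higher in H averaged, 4.7% in APOE_H against APOE_L and 0.36% in APOE_H against KA_H, and 2.46% were called lower in H averaged. No gene of any list was called in KA_L against CTRL_L, KA_H against KA_L, APOE_L against KA_L or the interaction (limma). In H against L averaged, the largest count was in the list of spliceosomal particle assembly around the SMN complex, which loads the Sm ring onto spliceosomal RNAs. There 5 of 12 tested genes rose and 0 fell, with a median difference of 1.80 against 0.32 for all tested entries. The 5 were Gemin7 (4.34, adjusted p = 0.00876) and the helicase Ddx20 (3.16, adjusted p = 0.0178), both of the SMN complex, and Clns1a (3.91, adjusted p = 0.0159), Prmt5 (3.21, adjusted p = 0.0131) and Wdr77 (2.42, adjusted p = 0.0122, limma), which form the complex that methylates Sm proteins. Prmt5 and Wdr77 also act on many other substrates. The CTRL_L libraries, outside this comparison, were within the range of the H libraries for Gemin7 (35.1, 54.9 and 91.1 TPM) and Clns1a (104, 60.8 and 130 TPM). The other genes called were lower in most CTRL_L libraries: Ddx20 at 0, 0.05 and 14.2 TPM, Prmt5 at 0.02, 2.77 and 0.02, and Wdr77 at 0, 2.15 and 0. The rise is thus one against KA_L and APOE_L only for Gemin7 and Clns1a. For Ddx20 and Prmt5, most CTRL_L libraries lay below every H library. Wdr77 in CTRL_L lay below every APOE_H library but overlapped with KA_H (0, 0.04 and 2.02 TPM). H was not tested against CTRL_L. In APOE_H against APOE_L, Wdr77 (4.29), Gemin7 (4.75) and Prmt5 (3.94) rose, with adjusted p of 0.00629, 0.0459 and 0.0381 (limma). Wdr77 was 27.3, 8.52 and 27.4 in APOE_H and 0 to 0.01 TPM in APOE_L. It was the only list gene called in APOE_H against KA_H, with a difference of 3.75 (adjusted p = 0.0439, limma). Both Wdr77 and Prmt5 were below 1 TPM in every KA_L and APOE_L library. Outside H they reached 1 TPM in CTRL_L replicate 2 only, so of the compared libraries they entered the test through H alone. Ddx20 reached 1 TPM outside H only in CTRL_L replicate 3 (14.2 TPM) and APOE_L replicate 3 (1.39 TPM). It too passed the filter of 3 libraries only with those of H.

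In each of the other lists at most 1 gene passed in either direction per comparison, and such single calls are read as values of that gene, not of its list. Of 33 spliceosomal particle proteins, Lsm4 rose (3.13, adjusted p = 0.0286, limma) and 0 fell. None of 5 proteins of the C/D particle passed in any comparison, with Snu13 and Nop56 the most abundant, and none of 10 of the H/ACA particle, with Coil and Nop10 the most abundant. Of 7 assembly factors Znhit3 rose (3.74, adjusted p = 0.0243, limma). Of 10 RNase P and RNase MRP proteins Rpp14 rose, by 3.38 averaged (adjusted p = 0.0248) and by 5.01 in APOE (adjusted p = 0.0287, limma), and it was 28.1, 29.9 and 36.1 in APOE_H and 0 in each of the 3 APOE_L libraries. Of 21 genes of spliceosomal RNA and RNA polymerase III transcription, the polymerase subunit Polr3d rose in the average (2.41, adjusted p = 0.0355) and Snapc2, a subunit of the activator of those promoters, in APOE (4.74, adjusted p = 0.0405, limma). Snapc2 was at most 0.85 TPM in KA_L and APOE_L, and outside H it reached 1 TPM in CTRL_L replicate 1 only. Polr3d (1.13 and 1.5 TPM) and Rpp14 (61.7 and 6.9 TPM) reached 1 TPM outside H in KA_L replicates 1 and 2 only. Both thus passed the filter of 3 libraries only with those of H. Of 9 genes listed for Y RNA binding and decay, Zbp1 was called, but it reached 1 TPM in H libraries only, at up to 39.3 TPM, and so entered the test through them. This symbol is the Z-DNA binding protein of antiviral cell death, whereas the Y RNA partner of the same abbreviation is Igf2bp1, so its place in the list rests on the name alone. None of 6 genes of the 7SK particle and P-TEFb passed, with Ccnt2 and Cdk9 the most abundant.

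Among 14 tested snoRNA host transcripts without a protein product, 1 fell and 1 rose in H against L averaged, beside the shares of 2.46% and 7.72% over all tested entries. Gas5, a host of C/D snoRNAs that is also known to accumulate on growth arrest, was 511, 549.9 and 688 in CTRL_L, 908, 1215 and 1014 in KA_L, 504, 822 and 707 in KA_H, 1375, 1193 and 1284 in APOE_L, and 402, 442 and 598 in APOE_H. All H libraries lay below all KA_L and APOE_L libraries, and the difference was -1.04 averaged (SE 0.22, adjusted p = 0.0078) and -1.43 in APOE (SE 0.31, adjusted p = 0.0141, limma). All 3 analysed members within Gas5 are shorter than 100 nt, at most 81 nt, and were listed at 0 in all libraries, so the snoRNAs could not be compared with the transcript. Snhg18, the one called higher, was listed at 0 in all L libraries and was 0.49 to 7 TPM in H, through which alone it entered the test. Snhg1 had a difference of -2.47 (adjusted p = 0.106, limma), while Snord22 within it had 0.66.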

How the data were processed

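RNA of 15 brain libraries was measured by RNA sequencing. The authors deposited 1 matrix of TPM values, and each library sums to 1000000. STAR and the genome build GRCh38, a human name, are given in the submitters' processing notes, without roles. The quantifier, annotation and strand setting are not given in the sources used here, so no coordinates are printed. Total RNA was extracted with Trizol and prepared with the TruSeq kit, per the labels' protocols.

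Symbols were assigned by Ensembl identifier from GENCODE M21 (GRCm38), which matched 52135 of 55416. The other 10548 entries are assembled loci. Groups came from the library titles and treatment labels. The fit used log2(TPM + 1), entries that reached 1 TPM in 3 or more libraries, 5 group means and moderated variances with a trend (limma 3.58.1, R 4.3.3), and Benjamini-Hochberg adjustment over 17505 entries at 0.05 in each of 7 comparisons. Shares, detection and figures were computed with Python 3.11.15, pandas 2.3.3 and matplotlib 3.10.9. The procedure was tested on simulated data with the spread of these libraries, where it missed most changes of the smaller size tried and made false calls above the nominal rate; the sizes tried had been raised after recovery of smaller changes was low. A member that was not called is therefore not shown to be unchanged. TPM holds no counts, so depth and counting error are unknown.

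The members and lists were chosen with earlier results of these data known. The text names every called member, all Rny, Rmrp and Rpph1 entries, detected Rnu entries, the 6 most abundant Snord, Snora and Scarna entries, pathway genes that passed or otherwise the 2 most abundant in a list, and the 3 genes most like Rny3. A sequence and a member that the rule would name are not reported here. Gas5 members, Snora78 and Rnu entries at 0 were named after their values were seen. Alternatives were the pseudocount, filter, scaling, variance model, compared groups, replicate block, the share's denominator, the detection limit and leaving out each library.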

Additional observations from a re-analysis of the deposited data

How the results depend on the processing

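Of 273 alternative values for the called members, 239 kept direction and call, 34 kept direction without passing, and 0 reversed. Both scalings kept all 15 calls. They moved the median of all tested entries in H against L averaged from 0.32 to 0.62 (upper quartile) and 0.20 (protein-coding total). Rny3 in KA_H against KA_L held in 5 of 15 alternatives. Without the variance trend Rpph1 was called there in its place (adjusted p = 0.0403, limma). The KA_H against KA_L count was 0 with a pseudocount of 0.1, no filter, only the compared groups or the replicate block, and 2 with a pseudocount of 5. The KA_L against CTRL_L count became 1, Snord118, with a pseudocount of 5, a 5 TPM filter or the replicate block. The averaged count was 5 with no filter. Leaving out 1 library gave ranges of 0 to 1 for KA_L against CTRL_L (1 without CTRL_L replicate 2), 0 to 1 for KA_H against KA_L, 3 to 5 for APOE_H against APOE_L (3 without APOE_L replicate 2), 7 to 8 averaged, and 0 to 1 for APOE_H against KA_H and the interaction (1 without KA_H replicate 3). Whether replicate numbers pair libraries was not settled. The 30 same-number correlations of deviations were small, from -0.026 to 0.037, yet 12 of 15 libraries matched their own number best. The main fit left libraries unpaired, and the replicate block moved the counts given above. The cause of these changes was not tested.

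As a share of protein-coding TPM, all members held 0.806% in KA_L and 0.622% in APOE_L, Snord 0.461% and 0.318%, Snora 0.0238% in APOE_L, Scarna 0.00048% and Rny 0.131% in KA_L, Rnu 0.152% in APOE_L, and Rmrp with Rpph1 0.00041% in KA_H. Without assembled loci, Snord held 0.389% in KA_L and Rnu 0.127% in APOE_L. Without its most abundant member, the whole set held 0.340% in KA_L and 0.265% in APOE_L. Snord then held 0.00997% in CTRL_L, 0.0838% in KA_L and 0.0405% in APOE_L, Snora 0.0157% in KA_L and 0.00566% in APOE_L, and Rny 0.0330% in KA_L and 0.0243% in APOE_L. Scarna held 0.00015% in KA_L and 0 in APOE_L. Rnu held 0.00448% in CTRL_L, 0.0120% in KA_L, 0.0226% in APOE_L, 0.00332% in KA_H and 0.00069% in APOE_H. Rmrp with Rpph1 held 0.00112% in CTRL_L, 3e-05% in KA_L, and 0 in APOE_L and KA_H. At 5 TPM or more, 10.3 members were detected per library in CTRL_L, 13.3 in KA_L and 13.3 in APOE_L. TPM gives no depth, so values near 0 cannot be separated from missed detection.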

Other observations

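Small RNA entries outside the naming rule were read with the same fit. Of 1819 such entries, 136 were above 0 in any library and 36 were tested, and the 4 most abundant of these were named after their values were seen. Gm22710, annotated as a spliceosomal RNA, was 32.3, 339 and 108 in CTRL_L, 644, 844 and 635 in KA_L, 15.4, 219 and 66.1 in KA_H, 598, 609 and 554 in APOE_L, and 38.9, 98.3 and 3.07 in APOE_H TPM. All H libraries lay below all KA_L and APOE_L libraries, and the averaged difference was -4.02 (SE 0.77, adjusted p = 0.00401, limma). Gm24616, annotated as a snoRNA, was 0, 83.1 and 0 in CTRL_L, 198, 249 and 477 in KA_L, 32.1, 25.2 and 53.5 in KA_H, 583, 892 and 599 in APOE_L, and 0 in each of the 3 APOE_H libraries. It was higher in KA_L than in CTRL_L (6.04, SE 1.28, adjusted p = 0.046) and lower in APOE_H than in APOE_L (-9.41, SE 1.28, adjusted p = 0.0013, limma). Gm25541 and Gm26244, both annotated as spliceosomal RNAs, were lower in H averaged, with differences of -5.46 (adjusted p = 0.00133) and -4.07 (adjusted p = 0.0404, limma). Over the 36 tested entries, 4 were called lower and 0 higher in H averaged, with a median difference of -0.82, where 2.46% of all tested entries were called lower. In KA_L against CTRL_L 1 of the 36 was called, higher, with a median of 1.08, where 0.571% of all tested entries were called.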
